A study of Mus musculus with 6 samples.

Results

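The genes described here are 37 mouse genes that build tight junctions, adherens junctions, desmosomes and the polarity complexes of epithelial cells. They were chosen by name, and all 37 were found among the 55331 genes of the gene table, with Pals1 listed there as Mpp5. Messenger RNA was sequenced from small intestinal crypt cells of C57BL/6 mice aged 60 days, in 3 WT and 3 PTBP1_KO libraries. WT mice were Ptbp1f/f, and PTBP1_KO mice were Ptbp1f/f;Vil-creER+/-, so both groups carried floxed Ptbp1 and only the second carried a Cre that villin regulatory sequence drives in intestinal epithelium. Mice of both groups were given 100 mg/kg of tamoxifen on 2 days, and crypts were taken 20 h after the second dose by scraping off villi, loosening in 2 mM EDTA and passing through a 70 µm strainer.

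Epithelial cells are held together by a belt of junctions. In tight junctions, claudins and occludin seal the space between cells and are tied to the cytoskeleton by scaffold proteins such as ZO-1, the product of Tjp1. In adherens junctions, E-cadherin (Cdh1) is anchored through catenins, in desmosomes cadherins of another family are anchored through plakophilins and desmoplakin, and the Par, Crumbs and Scribble complexes mark the apical and basolateral sides of the cell. PTBP1 is an RNA-binding protein that regulates alternative splicing, and many junction scaffolds are made in several splice forms. The comparison asks which genes and splice forms differ once Ptbp1 is deleted.

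Levels were deposited as 1 FPKM per group (fragments per kilobase of transcript, scaled to library size), so they carry no spread between libraries. Ptbp1 itself was listed at 230.0 FPKM in WT and 122.8 FPKM in PTBP1_KO, and in the authors' deposited table its q-value was 0.0125. The 10 epithelial markers lay between 88.6 and 2011 FPKM in WT and between 85.4 and 2190.6 FPKM in PTBP1_KO. Of 12 immune markers 9 were higher in PTBP1_KO, their summed level was 97.6 FPKM in WT and 162 FPKM in PTBP1_KO, and Gzma and Cd8a passed the threshold in the authors' deposited table. The 12 stroma and muscle markers summed to 8.88 and 9.32 FPKM, with 10 of them below 1 FPKM in both groups and Vim the highest at 4.90 and 6.28 FPKM. Among them Col1a1, Col1a2, Col3a1 and Dcn were listed lower in PTBP1_KO, between -1.34 and -1.06 on the log2 scale, each with an unadjusted p below 0.05 and none with a q-value below 0.05 in the authors' deposited table. All 8 endothelial and all 5 nerve and glia markers were below 1 FPKM, with Cldn5 and Sox10 listed at 0. The part of the immune and stroma markers in the results was not tested. Splicing was deposited as reads of single libraries, with a median of 365 to 487 reads per library over the events of the 37 genes and of 223 to 295 over all events.

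The segments whose use differed between libraries are shown first, because the findings turn on them. All come from transcripts of GENCODE M21 on mm10 and are written 5′ to 3′ on the strand of the gene. Capitals mark the alternative segment, and lower case the 12 coding bases on each side of it.
Plekha6 skipped exon of 150 nt, plus strand, chr1:133286247-133286396: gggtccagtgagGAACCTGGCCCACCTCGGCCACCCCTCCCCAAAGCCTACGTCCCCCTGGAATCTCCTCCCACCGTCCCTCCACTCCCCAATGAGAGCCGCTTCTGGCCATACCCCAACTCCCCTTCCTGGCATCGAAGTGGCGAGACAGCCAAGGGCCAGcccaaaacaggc
Plekha6 segment of 60 nt after an alternative 3′ splice site, plus strand, chr1:133270000-133270059: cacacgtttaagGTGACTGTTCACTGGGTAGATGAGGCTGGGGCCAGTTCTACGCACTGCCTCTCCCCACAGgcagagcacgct
Plekha6 skipped exon of 54 nt, plus strand, chr1:133275812-133275865: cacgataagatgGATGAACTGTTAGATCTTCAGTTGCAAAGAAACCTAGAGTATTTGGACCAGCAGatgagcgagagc
Plekha6 skipped exon of 69 nt, plus strand, chr1:133280339-133280407: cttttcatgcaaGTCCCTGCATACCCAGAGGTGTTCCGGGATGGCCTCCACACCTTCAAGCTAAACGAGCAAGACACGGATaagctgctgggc
Tjp1 segment of 39 nt before an alternative 5′ splice site, minus strand, chr7:65299670-65299708: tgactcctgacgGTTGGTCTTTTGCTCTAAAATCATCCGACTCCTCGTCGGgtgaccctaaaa
Magi1 skipped exon of 36 nt, minus strand, chr6:93769508-93769543: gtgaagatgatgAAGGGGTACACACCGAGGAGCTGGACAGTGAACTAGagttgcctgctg
Ctnnd1 skipped exon of 18 nt, minus strand, chr2:84612532-84612549: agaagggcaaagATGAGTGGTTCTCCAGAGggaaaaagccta

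The other changed exons are only partly coding. Of the Magi3 exon of 91 nt (minus strand, chr3:104016602-104016692) the 47 coding bases are shown in capitals, and they are the last of the annotated coding sequence. Of the Ctnnd1 exon of 289 nt (minus strand, chr2:84624270-84624558) the 195 coding bases are shown in lower case, with capitals for the annotated start codons of the 2 transcripts described for it.
Magi3, coding part of the 91 nt exon: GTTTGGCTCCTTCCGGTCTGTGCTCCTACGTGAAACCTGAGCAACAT
Ctnnd1, coding part of the 289 nt exon: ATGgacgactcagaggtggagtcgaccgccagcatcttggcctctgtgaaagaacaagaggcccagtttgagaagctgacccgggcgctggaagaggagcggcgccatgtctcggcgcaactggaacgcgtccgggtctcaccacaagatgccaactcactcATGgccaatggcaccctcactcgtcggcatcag

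No junction, adhesion or polarity gene passed the test in level. All 37 were tested, and 0 had a q-value below 0.05 in the authors' deposited table, where 0.537% of the 15460 tested genes did (0.388% higher and 0.149% lower in PTBP1_KO). None of the 37 had an unadjusted p below 0.05 either, beside 4.35% of all tested genes. Of the 37 genes 27 were listed higher in PTBP1_KO and 10 lower, so 73.0% were listed higher, beside 54.7% of all tested genes. Their median log2 ratio of PTBP1_KO over WT, with a pseudocount of 1 FPKM, was 0.06, beside 0.02 over all tested genes. In bulk RNA, fewer cells of a type and less RNA per cell cannot be told apart.

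Tight junction membrane proteins were listed slightly higher in PTBP1_KO in 10 of 10 cases, with a median log2 ratio of 0.11. Cldn7, a claudin of the lateral membrane, was listed at 422.9 FPKM in WT and 490.5 FPKM in PTBP1_KO. The authors' deposited table gave it 0.21 on the log2 scale, with p = 0.210. Cldn2, a claudin that forms cation channels in crypts, was at 71.2 and 82.4 FPKM. For it the log2 fold change was also 0.21 in the authors' deposited table, and p = 0.165 was the smallest of the 37 genes. Cldn3 was at 329 and 330.3 FPKM, and Cldn15, which forms sodium channels, at 286 and 299 FPKM. The remaining members, Ocln, Marveld2, Marveld3, F11r, Cxadr and Cldn4, lay between 18.2 and 75.0 FPKM in WT.

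The scaffolds of the tight junction plaque were listed higher in 2 and lower in 3 of 5 cases, with a median log2 ratio of -0.01. Tjp1 was at 19.6 FPKM in WT and at 19.5 FPKM in PTBP1_KO. Its relative Tjp3, which encodes ZO-3, had 133 and 127 FPKM, and Cgn, which encodes the scaffold cingulin, had 48.2 and 48.6 FPKM. Magi3, a scaffold with PDZ and WW domains, had 11.3 and 13.1 FPKM. For it the authors' deposited table gave a log2 fold change of 0.21 and p = 0.257. Magi1, of the same family, had 13.1 and 12.02 FPKM.

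Among adherens and other adhesion genes 7 of 9 were listed higher, with a median log2 ratio of 0.12. Epcam, an adhesion protein of the epithelial surface and the most abundant of the 37 genes, was at 1219.8 FPKM in WT and at 1340.4 FPKM in PTBP1_KO, a log2 fold change of 0.14 with p = 0.610 in the authors' deposited table. Cdh1 had 227 and 253 FPKM, and Cdh17, the liver-intestine cadherin, had 269.8 and 302 FPKM. Ctnna1, which encodes alpha-catenin, had 141 and 148 FPKM. Ctnnd1, which encodes p120-catenin, had 65.1 and 74.9 FPKM. Plekha6, a PH-domain protein related to the adherens junction protein Plekha7, had 62.8 and 68.4 FPKM, while Plekha7 had 22.6 FPKM in both groups.

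Desmosome genes were listed higher in 5 of 6 cases, with a median log2 ratio of 0.07. Dsc2, a desmosomal cadherin, was at 49.0 FPKM in WT and at 56.6 FPKM in PTBP1_KO, listed as 0.21 on the log2 scale with p = 0.182 in the authors' deposited table. Pkp3, a plakophilin, had 62.0 and 54.5 FPKM, which the authors' deposited table lists as -0.19 with p = 0.284. Polarity genes were listed higher in 3 and lower in 4 of 7 cases, with a median of -0.03. Llgl2, a homologue of the fly tumour suppressor lethal giant larvae, had 78.6 and 66.1 FPKM. At -0.25 on the log2 scale, with p = 0.386, it was the lowest of the 37 genes in the authors' deposited table. Pard6b, the Par complex adaptor, was the least abundant at 8.31 and 7.40 FPKM.

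**Figure D1:**
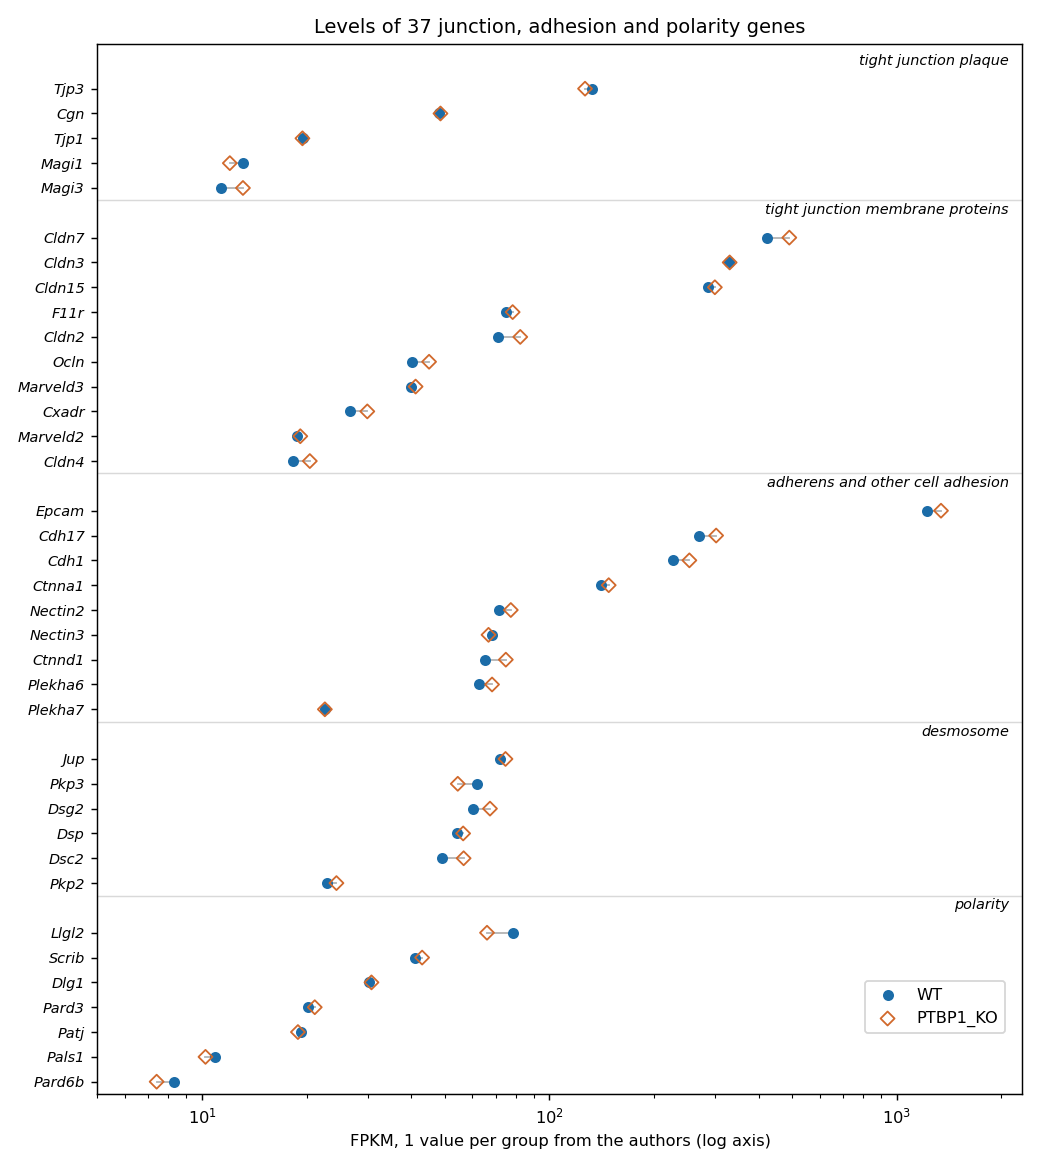
FPKM of each of the 37 genes (log axis) in WT (filled circles) and PTBP1_KO (open diamonds), 1 value per group from the authors and hence without error bars, grouped by role. The paired symbols lie close together in all 5 roles, from Pard6b at 8.31 and 7.40 FPKM to Epcam at 1219.8 and 1340.4 FPKM.

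Splice forms of Plekha6, Ctnnd1, Tjp1, Magi1 and Magi3 differed between sets of libraries, while no gene had passed the test in level. An event is 1 alternative choice in the mRNA, and its inclusion level is the share of transcripts that hold the segment, computed in each library from reads that include or skip it, each divided by the length of its form. The tables set 3 libraries, called the first set here, against 3 others, called the second. Their headers do not say which genotype either set is, so each difference below is the first set minus the second and has no direction by genotype. Of 319 listed events of the 37 genes, 313 in 32 genes reached a mean of 20 reads per library. The event just inside that minimum had 21 reads and the one just outside 11.8. No event of Cldn2, Cldn3, Cldn4, Marveld3 or Pard6b was listed.

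An event was called changed when the authors' FDR was below 0.05 and the difference was at least 0.1, which 13 of 313 events did, or 4.15%, beside 1.56% of the 53918 events of all genes. Of the 13, 9 were higher in the first set and 4 were lower. Over all genes 843 events changed, of which 543 were higher in the first set (1.01% of all events) and 300 lower (0.556%). They lay in 5 of 32 genes, or 15.6%, beside 6.61% of all 9337 genes with such events. The median of mean reads was 412 for the 313 events and 262 for all events. These shares were not matched for depth or for the number of events per gene. An FDR below 0.05 alone was listed for 28 of the 313 in the authors' deposited table, beside 3.76% of all events. The libraries of the first and second set did not overlap in 49 of the 313 events, or 15.7%, beside 9.15% of all events, and did not overlap in any of the 13. The lowest library in any of the 13 had 39 reads.

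By type, 9 of 221 skipped exon events changed (1.68% of all such events), 1 of 15 alternative 5′ splice sites (1.57%) and 2 of 18 alternative 3′ splice sites (1.1%). Of mutually exclusive exons 1 of 48 changed (1.02%), and of retained introns 0 of 11 (2.06%). Several events shared a segment, so the 13 came from 9 segments, of which 7 had a length that is a multiple of 3 and keeps the reading frame. Over all 176 skipped exons of the 32 genes, 96 or 54.55% had such a length, beside 39.9% of 31346 exons of all genes. By role, 10 of 85 events changed among adherens and other adhesion genes, all of them in Plekha6 and Ctnnd1, and 3 of 65 among plaque scaffolds. None changed among 31 events of tight junction membrane proteins, 33 of desmosome genes and 99 of polarity genes, where 0 is near the 1.56% of all events at these numbers of events. Whether the roles differ was not tested.

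**Figure D2:**
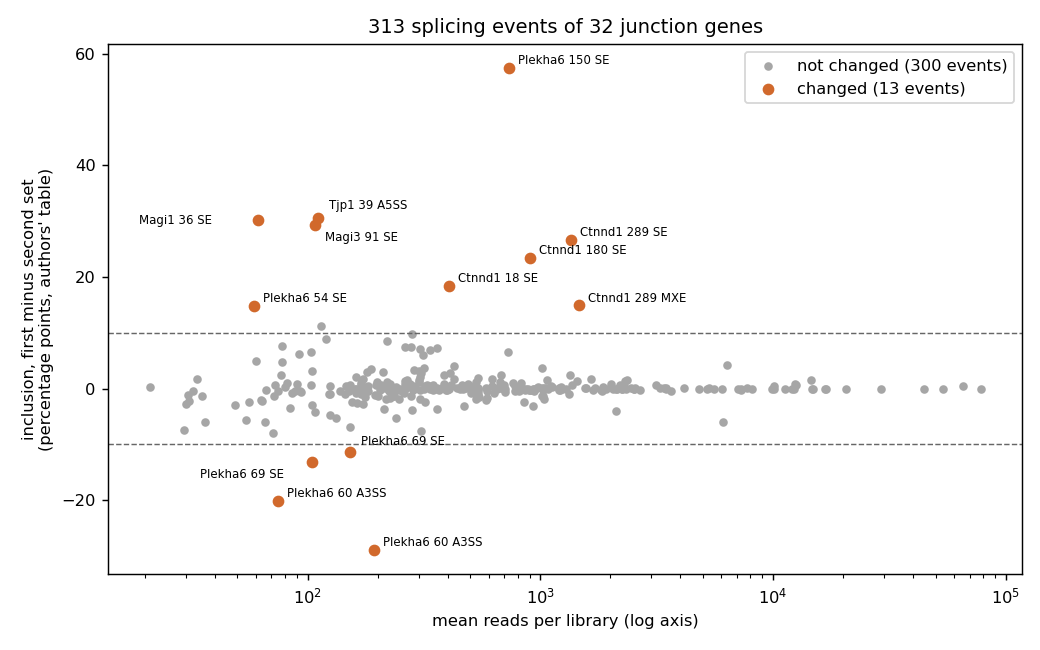
Difference in inclusion between the first and second set of libraries (percentage points, from the authors' table) against mean reads per library (log axis) for the 313 events of 32 genes; orange points are the 13 changed events, named by gene, length in nt and type (SE skipped exon, A5SS and A3SS alternative 5′ and 3′ splice site, MXE mutually exclusive exons), and dashed lines mark a difference of 10 points. Most of the 300 other events lie near 0 at all depths, and the Plekha6 exon of 150 nt stands highest.

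Plekha6 carried 6 of the 13 events, in 4 segments along its coding sequence. The exon of 150 nt was included at 69.8, 62.2 and 74.5% in the first set and at 13.5, 9.60 and 11.3% in the second. Most transcripts thus held it in every library of the first set and few did in the second. The inclusion level differed by 0.574 in the authors' deposited table, with an FDR of 0, over a mean of 737 reads per library. It occupies bases 2395 to 2544 of an annotated coding sequence of 3519 bases, without a stop codon in frame, and is in 1 of 8 annotated protein-coding transcripts.

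The 60 nt segment of Plekha6 went the other way. Its inclusion was 58.8, 61.3 and 55.9% in the first set and 94.4, 83.8 and 84.6% in the second, joined to 1 upstream exon. Against another upstream exon it was 75.6, 75.0 and 72.4% and 91.9, 93.2 and 98.2%. In both pairings every library of the second set lay above every library of the first. The differences were -0.289 and -0.201 in the authors' deposited table, with FDRs of 8.33e-14 and 4.76e-06. The segment covers coding bases 382 to 441 of a transcript with 3207 coding bases, and 2 of 8 protein-coding transcripts hold it.

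The remaining Plekha6 exons were closer to the thresholds. The 54 nt exon was included at 11.7, 29.9 and 25.2% in the first set and at 10.5, 3.51 and 8.33% in the second, so the nearest libraries of the sets almost met. For it the authors' deposited table gave 0.148 with an FDR of 0.00441, over a mean of 58.8 reads. The 69 nt exon was included at 86.3, 80.9 and 90.1% against 98.6, 100 and 98.0%, which is -0.131 with an FDR of 4.42e-07 in the authors' deposited table. With another upstream exon it was at 65.2, 68.5 and 70.0% against 79.3, 77.0 and 81.3%. That pairing had -0.113 and an FDR of 0.0467 in the authors' deposited table, and without the first library of the first set its difference was -0.0996, below the minimum of 0.1. Joined to the 54 nt exon upstream, the 69 nt exon was at 100, 97.6 and 83.15% against 100, 100 and 98.45%. There the sets overlapped and the event was not called, at -0.059 with an FDR of 0.0124 in the authors' deposited table. An exon of 87 nt upstream of these 2 was not called, at 56.1, 48.3 and 59.3% against 58.2, 44.2 and 52.3% (named after its values were seen).

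**Figure D3:**
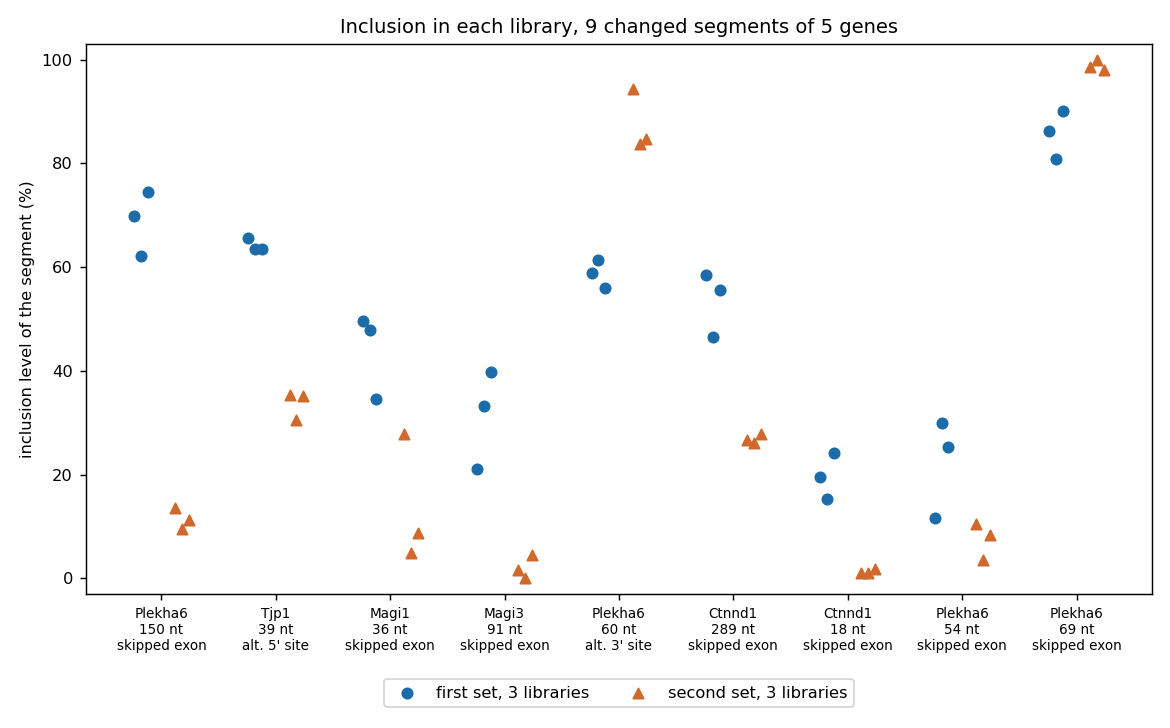
Inclusion level (%) of the 9 changed segments in each library, with circles for the 3 libraries of the first set and triangles for the 3 of the second, whose genotypes the tables do not name. Where a segment has several events, the 1 with the largest absolute difference is shown. The sets do not overlap in any of the 9, with the widest gap for the Plekha6 exon of 150 nt and the narrowest for its exon of 54 nt.

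Ctnnd1 encodes p120-catenin, which holds cadherins at the cell surface. It is known for forms that begin at different start codons, of which the longest predominates in mesenchymal cells and a shorter one in epithelial cells. The annotated start codons printed above for the 289 nt exon were not matched to the mesenchymal or epithelial form. This exon was included at 58.5, 46.6 and 55.7% in the first set and at 26.7, 26.05 and 27.8% in the second. All libraries of the second set thus lay below all of the first, and close to each other. This was 0.267 with an FDR of 0 in the authors' deposited table, over a mean of 1355.5 reads. In this event the form without it joins the preceding exon to the exon of 72 nt that follows. In another event, where that form joins to the exon after the 72 nt exon, the 289 nt exon was at 100, 96.5 and 99.6% against 100, 98.99 and 100%, with an FDR of 1 in the authors' deposited table. The exon is in 10 of 24 protein-coding transcripts, and the coding sequence of the transcript used here starts in it and has 2901 bases.

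A shorter form of the same Ctnnd1 exon, of 180 nt, lacks the first of the start codons. It was included at 46.5, 37.2 and 45.6% against 20.2, 18.4 and 20.6%, which is 0.234 with an FDR of 0 in the authors' deposited table. The coding sequence of its transcript starts 33 bases before the end of the exon and has 2634 bases. This form is in 7 of 24 protein-coding transcripts. The 180 nt lie inside the 289 nt exon, so reads there can count for both, and both levels together are not shares of separate transcripts. In a mutually exclusive event with the exon of 72 nt, the 180 nt form was at 5.405, 8.055 and 8.84% against 3.54, 3.23 and 4.63%. That event had an FDR of 5.87e-06 in the authors' deposited table, but its difference of 0.037 was under the minimum. The changed event with most reads, a mean of 1474, set the 289 nt exon against that exon of 72 nt, at 31.5, 26.8 and 31.6% against 14.6, 14.6 and 15.9%. It is listed with 0.149 and an FDR of 0 in the authors' deposited table. As a skipped exon the 72 nt exon was included at 99.73% over all libraries, so levels set against it are not shares of transcripts. The 3 changed events lie in the same region and are not independent.

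Further along Ctnnd1, the 18 nt exon was included at 19.5, 15.3 and 24.2% in the first set and at 0.994, 1.05 and 1.77% in the second. It was close to absent from the second set. The authors' deposited table lists 0.184 with an FDR of 0, over a mean of 403.5 reads. The exon spans coding bases 1877 to 1894 of 2901 and is in 10 of 24 protein-coding transcripts. Another Ctnnd1 exon, of 63 nt, was at 68.2, 67.5 and 65.75% against 72.0, 70.4 and 71.1% and was not called, with an FDR of 0.469 in the authors' deposited table (named after its values were seen).

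Tjp1 encodes ZO-1, the central scaffold of the tight junction. The 39 nt segment near the end of its coding sequence was included at 65.5, 63.5 and 63.5% in the first set and at 35.3, 30.5 and 35.1% in the second. Libraries within a set differed by at most a few points, and the sets lay far apart. The difference was 0.305 in the authors' deposited table, with an FDR of 9.03e-10 and a mean of 111 reads. The segment covers bases 4925 to 4963 of 5055 coding bases and is in 1 of 3 protein-coding transcripts. The 240 nt exon of Tjp1 was included at 85.1, 78.8 and 78.4% against 79.75, 75.9 and 83.4%. Its sets overlapped, and its FDR was 1 in the authors' deposited table (named after its values were seen).

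Magi1 and Magi3 encode related scaffolds of tight junctions. The 36 nt exon of Magi1 was included at 49.5, 47.95 and 34.55% in the first set and at 27.8, 4.86 and 8.84% in the second, where 1 library stood well above the other two. The authors' deposited table gave 0.302 with an FDR of 1.52e-05, on a mean of only 61.2 reads. The exon covers coding bases 1043 to 1078 of 3840 and is in 5 of 9 protein-coding transcripts. Another Magi1 exon, listed with lengths of 168, 201 and 204 nt, was not called (named after its values were seen). Its differences of 0.075, 0.071 and 0.07 were under the minimum, with FDRs of 0.022, 0.023 and 0.013 in the authors' deposited table. The 91 nt exon of Magi3 was included at 21.04, 33.2 and 39.9% against 1.65, 0 and 4.54%. For this exon 0.293 and an FDR of 0 stand in the authors' deposited table, over a mean of 107 reads. Its 47 coding bases are bases 3332 to 3378 of 3378, so the annotated coding sequence that includes it ends inside it, and 1 of 3 protein-coding transcripts holds it. A pair of mutually exclusive Magi3 exons differed by 0.113 but had an FDR of 0.358 in the authors' deposited table and was not called.

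**Figure D4:**
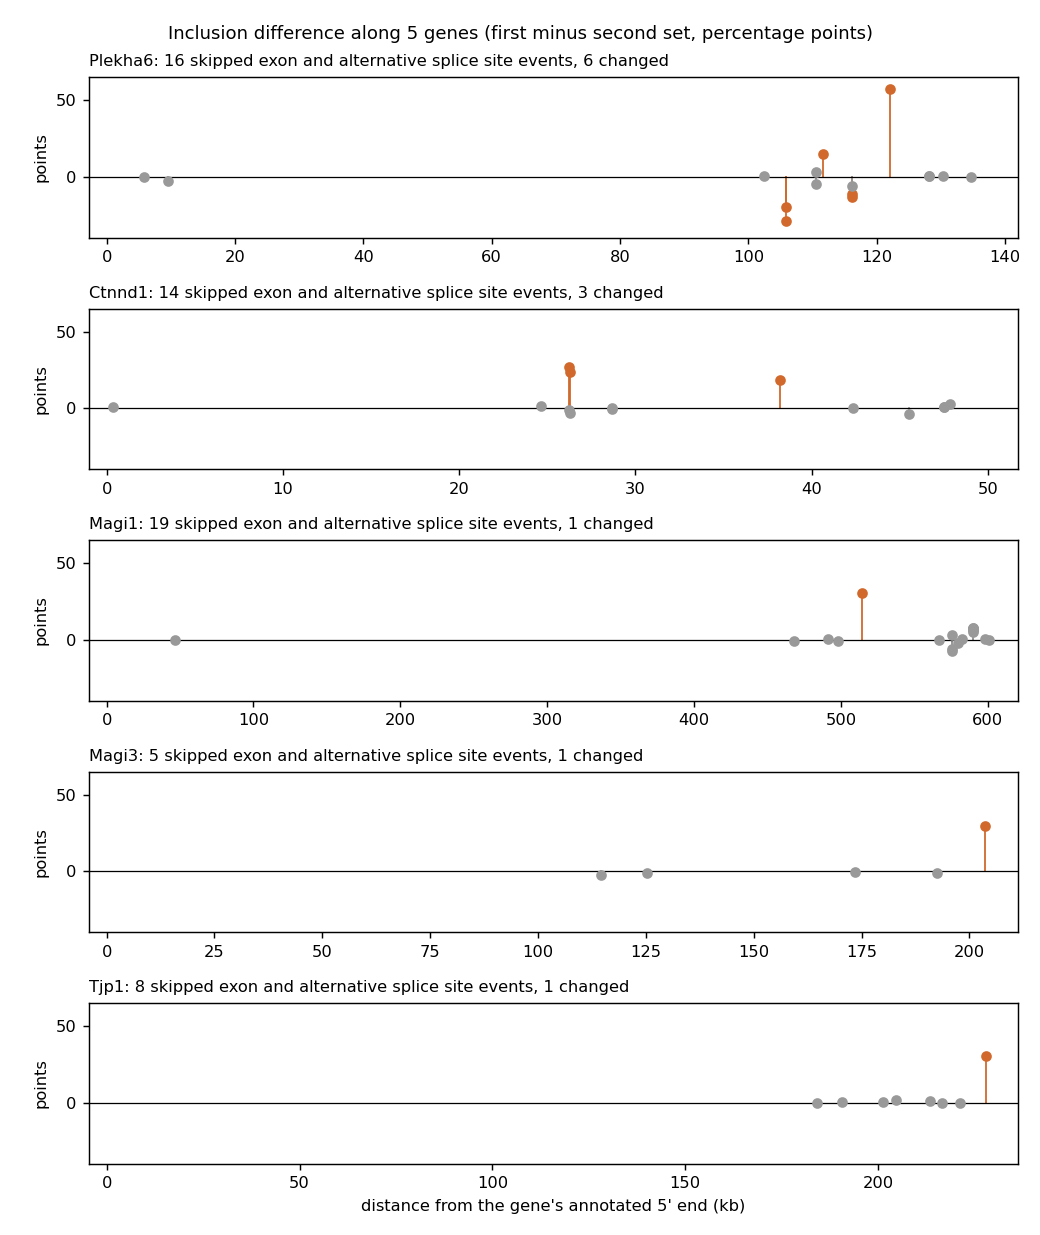
Difference in inclusion (percentage points, first minus second set, from the authors' table) of every skipped exon and alternative splice site event with enough reads, plotted at its distance from the gene's annotated 5′ end (kb) in the 5 genes with changed events; orange stems are changed. Plekha6 has 6 of 16 such events changed, in both directions, while Magi1, Magi3 and Tjp1 have 1 each.

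Among polarity genes, Scrib came closest to the minimum. Scrib encodes a scaffold of the basolateral side, and its exon of 84 nt (chr15:76049457-76049540, minus strand) was included at 24.5, 19.7 and 21.5% in the first set and 11.1, 12.8 and 12.5% in the second. The sets did not overlap, and with 0.098 and an FDR of 6.54e-05 in the authors' deposited table this was the only event with an FDR below 0.05 and a difference between 0.08 and 0.1. A Scrib exon of 75 nt was at 7.68, 6.89 and 10.5% against 0.226, 2.70 and 0%, higher in the first set. The Scrib intron of 118 nt beside it, listed as retained, was lower in the first set, at 91.5, 95.8 and 87.5% against 99.2, 98.4 and 100%. This level counts removal of the intron only by splicing to the 75 nt exon, with 13, 11 and 31 reads in the first set. Another 237, 222 and 213 reads there skipped that exon and the intron with it. The level is thus not a share of all Scrib transcripts, and it is not independent of the 75 nt exon. Pard3, of the Par complex, had an exon of 84 nt at 91.4, 97.1 and 94.5% against 100, 98.9 and 100%. Pals1, of the Crumbs complex, had a 3′ splice site segment of 237 nt at 88.0, 95.1 and 96.2% against 86.3, 84.2 and 86.7%. Patj, also of the Crumbs complex, had an exon of 38 nt at 97.7, 96.6 and 96.1% against 98.9, 100 and 98.7%. In the authors' deposited table these 5 events had FDRs below 0.05, and their differences of 0.074, -0.076, -0.053, 0.073 and -0.024 were under the minimum.

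Dlg1, a scaffold of the Scribble complex, had the most events, 43, and none had an FDR below 0.05 in the authors' deposited table. Over all libraries 18 of its events lay between 5 and 95% inclusion, but these include events listed as mutually exclusive exons. A pair of exons at 55.1% there was included at 99.91 and 99.96% as single skipped exons. The 18 are thus not a count of exons used in part. The 99 nt exon of Dlg1 was at 70.8, 64.9 and 58.7% against 61.0, 54.1 and 61.1%, with overlapping sets and an FDR of 0.990 in the authors' deposited table (named after its values were seen). Patj had 23 events and Llgl2 had 7, with 0 changed, and 0.089 was the largest absolute difference in Patj.

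The remaining junction genes with listed events were covered by reads and had no changed event. In all, 27 genes with enough reads had none, with a largest absolute difference of 0.098 in Scrib, and 21 of the 27 stayed below 0.05 in each event. Among tight junction membrane proteins the largest absolute difference was 0.032, in 9 events of Marveld2, and it was 0.013 in 7 events of Ocln and 0.015 in 7 of Cldn7. None of these 31 events had an FDR below 0.05 in the authors' deposited table, and 1 had an unadjusted p below 0.05. Cdh1 and Ctnna1 had largest differences of 0.003 in 4 and 5 events, and Epcam 0.012 in 13. Among plaque scaffolds, Tjp3 reached 0.042 in 18 events and Cgn 0.018 in 9. Desmosome genes reached 0.06 in size at an alternative 5′ splice site of 1797 nt in Dsp, which encodes desmoplakin, with an FDR of 0.114 in the authors' deposited table. A Dsc2 exon of 35 nt and a Pkp3 exon of 118 nt had FDRs of 5.27e-05 and 0.0388 there. Their differences of 0.034 and -0.021 were under the minimum (named after their values were seen).

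Other genes of the pathway were counted from a list of 70, of which 69 matched and 44 were tested in level. None of the 44 had a q-value or an unadjusted p below 0.05 in the authors' deposited table, beside 0.537% and 4.35% of all tested genes, and their median log2 ratio was 0.02. In splicing, 10 of 238 events changed, or 4.20%, beside 1.56% of all events. They lay in 6 of 30 genes, beside 6.61% of all genes. Of the 10, 8 were higher in the first set and 2 were lower, beside 543 and 300 of the 843 changed events of all genes. Pkp4, a plakophilin-related armadillo protein, had its 129 nt exon at 44.9, 46.8 and 57.9% against 20.6, 22.1 and 23.0%. Afdn, which encodes afadin and links nectins to actin, had a 45 nt exon at 27.4, 20.5 and 32.4% against 0, 0 and 1.07%. Camsap3, a binder of microtubule minus ends, had a 33 nt exon at 19.1, 10.8 and 38.5% against 0, 3.57 and 5.785%. Lsr, a protein of tricellular junctions, had a 147 nt exon at 83.6, 77.9 and 79.1% against 66.9, 65.5 and 69.8%. An 18 nt exon of Plekha5, a relative of Plekha6, and a 144 nt exon of Erbin were the other two, at differences of 0.117 and 0.103 in the authors' deposited table. In each of these 6 exons every library of the first set was above every library of the second.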

How the data were processed

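The 37 genes and the lists were chosen with earlier results of these data known. The submitters' processing notes name mm10 and the tools STAR 2.6.1d, bcl2fastq 2.20, Trimmomatic 0.38, Cuffdiff and Cufflinks. The authors deposited 1 FPKM per group and gene, with a log2 fold change, a p-value and a q-value, so depth and spread between libraries are unknown there. The test score that the authors deposited beside them was not used. Per the file headers, 5 splicing tables of the MATS layout hold reads of 3 libraries in each of 2 unnamed sets, which also count reads inside the segment, with the authors' p-value, FDR and inclusion level difference. The 10 deposited columns of inclusion levels were not used. Inclusion was recomputed as reads over form length and lay within 0.00112 of the authors' differences. Groups came from sample titles, which number the samples. The sources used here do not say what spread the authors' p-values rest on, and it may be technical.

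A gene was called at q below 0.05 with status OK. An event was called at FDR below 0.05, an absolute difference of at least 0.1 and a mean of 20 reads. No test was run on either, because the gene table has no replicates and the sets no genotype. Named were all changed events, the 4 highest and 4 lowest fold changes, the 3 highest levels and events just outside 0.1. Overlapping events count once as a segment. Intronic sequence and motifs, which had been planned, were not used here. Scripts ran in Python 3.11.15 with numpy 2.4.6, pandas 2.3.3 and matplotlib 3.10.9, and were tested on simulated data.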

Additional observations from a re-analysis of the deposited data

How the results depend on the processing

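The count of 0 genes called in level stayed 0 at a q-value below 0.1, at an unadjusted p below 0.05, with at least 1 FPKM and with a fold of at least 1.5. All 37 genes were above 1 FPKM, with log2 fold changes of at most 0.25 in size, so these minima could not change the count. The median log2 ratio was 0.06 with a pseudocount of 0.1 and 0.05 when centred on all tested genes. The count of 13 changed events was 23 at a minimum difference of 0.05 and 8 at 0.2. It stayed 13 at a mean of 10 or 50 reads and at 20 reads in every library, was 9 with shared segments counted once, and was 12 without mutually exclusive exons, an alternative chosen after seeing the data. None of the 13 was below 39 reads in a library or a mean of 58.8, so the stricter read minima could remove none. With each library left out in turn, 77 of 78 differences of the 13 events stayed at 0.1 or above in size, 0 reversed and 1 fell below, at -0.0996 for the 69 nt exon of Plekha6 with its second upstream exon. With reads not divided by form length 11 of 13 stayed, and both changed events of that exon were at -0.0938 and -0.0916. With reads summed within each set 13 of 13 stayed. FDRs could not be recomputed with a library left out. No paired analysis was possible because the gene table has 1 value per group and the splicing columns carry neither replicate numbers nor genotypes. Depth limits the Plekha6 54 nt and Magi1 36 nt exons most, at means of 58.8 and 61.2 reads per library.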

Other observations

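Events listed as mutually exclusive exons gave inclusion levels unlike those of the same exons listed as skipped exons. Of the 48 such events of the junction genes, 47 had both exons also listed as skipped exons, and in 38 of these both were included at over 95% there. The inclusion level of the 38, over all libraries, ranged from 0.544 to 98.3% as mutually exclusive exons, with a median of 43.75%, and 34 of them lay between 5 and 95%. In Cdh1, for example, a pair of exons was at 41.1% as mutually exclusive exons while the single exons were at 99.99 and 99.97%.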
